A study of Mus musculus with 10 samples.

Results

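The serpin family was described in the livers of mice given napabucasin and of mice given its vehicle. Members were the rows of the deposited count table that were annotated as protein-coding and had a gene name beginning with Serpin. There were 61 such genes among 54532 genes of all kinds, of which 22046 were protein-coding. The rule reads names and annotation and no measured value, but the family was picked for description with earlier results of these data known. Napabucasin (BBI608) is a quinone drug that has been described to block STAT3-dependent transcription. Livers came from 5 mice that received 20 mg of napabucasin per kg body weight by gavage every day over 7 days, and from 5 mice that received the vehicle, 1% NaCMC, over the same time. Each of the 10 libraries of polyadenylated RNA is labelled as a biological replicate. The sources used here do not state the strain, sex, age or genotype. Nothing in the labels says what the equal replicate numbers of the groups share.

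Serpins are proteins that mostly inhibit serine proteases by a suicide mechanism. The target protease cuts an exposed stretch, the reactive centre loop, and the serpin then folds that loop into one of its own sheets and traps the enzyme. The liver secretes many of them into plasma, where they hold back neutrophil elastase, thrombin, plasmin and the first component of complement, and a few members are hormone carriers or chaperones that inhibit nothing. Family members are sorted into clades by letter. Clade A holds the antitrypsin-like plasma serpins, and clade B holds intracellular ones.

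The reactive centre loop is known as the most variable stretch of close mouse paralogs, and it decides which protease a serpin traps. The 5 mouse antitrypsin genes of the Serpina1 group had coding sequences that were 96.3% to 98.5% identical in pairs, and the stretches that code for their loops are shown for this reason. Each is 66 bases long, read 5′ to 3′ on the coding strand of GRCm38 (minus strand of chromosome 12, 1 coding exon), and capitals mark the 15 positions at which the 5 genes are not all the same. The stretches lie at chr12:103853765-103853830 for Serpina1a, chr12:103728332-103728397 for Serpina1b, chr12:103895102-103895167 for Serpina1c, chr12:103763770-103763835 for Serpina1d and chr12:103947108-103947173 for Serpina1e.
Serpina1a: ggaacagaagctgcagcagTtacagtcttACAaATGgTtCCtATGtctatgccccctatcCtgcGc
Serpina1b: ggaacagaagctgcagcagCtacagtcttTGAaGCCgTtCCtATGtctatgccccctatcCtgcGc
Serpina1c: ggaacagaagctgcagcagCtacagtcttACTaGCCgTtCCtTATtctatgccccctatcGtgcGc
Serpina1d: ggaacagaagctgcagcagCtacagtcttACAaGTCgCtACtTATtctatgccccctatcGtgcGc
Serpina1e: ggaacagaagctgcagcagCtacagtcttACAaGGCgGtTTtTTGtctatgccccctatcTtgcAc

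The Serpina3 group, the mouse counterparts of antichymotrypsin, lies beside the Serpina1 genes on chromosome 12, on the plus strand except for Serpina3c. Loop stretches of Serpina3k, Serpina3m and Serpina3n are shown so that the stretch that meets the protease can be compared between the secreted members described below. Lower case marks the first 24 bases, which code for the hinge of the loop, and capitals mark the rest. They lie at chr12:104345269-104345337 for Serpina3k, chr12:104393769-104393843 for Serpina3m and chr12:104413448-104413522 for Serpina3n (GRCm38, 1 coding exon each).
Serpina3k: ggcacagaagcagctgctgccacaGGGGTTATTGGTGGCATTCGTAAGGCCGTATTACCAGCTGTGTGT
Serpina3m: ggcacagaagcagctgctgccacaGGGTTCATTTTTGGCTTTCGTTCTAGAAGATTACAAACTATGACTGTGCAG
Serpina3n: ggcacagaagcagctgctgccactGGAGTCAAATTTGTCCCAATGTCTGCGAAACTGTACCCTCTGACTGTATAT

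Paralogs this close can share reads, and the sources used here do not say how a read that matched more than 1 gene was counted. A window of 100 bases was moved along each coding sequence and counted as shared where the same bases occurred in another serpin. Shared windows made up 58.1% of the coding sequence of Serpina1a, 28% of Serpina1b, 61.8% of Serpina1c, 29.9% of Serpina1d and 19.1% of Serpina1e. They made up 8.23% of both Serpina3k and Serpina3m, 2.67% of Serpina3f and 0.155% of Serpina3g. The Serpina3g coding sequence used had 744 bases, against 1335 for Serpina3f, so its share can miss windows outside that part. Shared windows of Serpina3f matched transcripts of Serpina3g and Serpina3i. Serpina3k and Serpina3m also start at the same base and have 60 exon bases in common. The separate values of the Serpina1 genes are therefore uncertain, and sums over paralogs are given beside them.

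Library totals ran from 15364342 to 17369118 counts in napabucasin livers and from 14124484 to 17759967 counts in vehicle livers. Mitochondrial genes took 13.2% ± 4.42 of counts in napabucasin livers and 9.79% ± 5.21 in vehicle livers (SD, n = 5 each). Ribosomal RNA genes took 0.195% to 1.09% of counts, and the 3 highest shares were in napabucasin livers 1 and 2 and in vehicle liver 2. Vehicle liver 2 stood apart from the other vehicle livers: the summed level of 10 hepatocyte markers was 43461 CPM there, against 117852 to 162281 CPM in the other 4 vehicle livers and 74575 to 135323 CPM in the napabucasin livers. Vehicle liver 1 differed from its group in other measures: mitochondrial genes took 19.0% of its counts, against 7.03% to 8.78% in the other 4 vehicle livers, and its summed Kupffer cell and macrophage markers were at 380.2 CPM, against 1149 to 2086 CPM. All 10 hepatocyte markers, albumin among them, were detected and tested, as the labelled tissue requires. Markers of some other cell types are given beside the serpins as values of the groups. Their relation to a serpin from liver to liver was not tested.

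Of the 61 serpin genes, 42 had at least 1 count and 29 had enough counts to be tested among 14244 genes. The 19 genes with no count in any library were mostly of clade B, which had 26 members, 15 of them without a count. A count of 0 over all 10 libraries allows a level of up to 0.0184 CPM, for counting error only. The 13 genes that were counted but not tested had between 1 and 72 counts over all 10 libraries. Among them Serpinb7 had 72 counts and Serpina3i had 54, while Serpina5, which encodes the protein C inhibitor, had 4. The tested genes were 15 of the 24 members of clade A, 5 of the 26 of clade B, 2 of 3 of clade E, both of clade F, 1 of 2 of clade I, and Serpinc1, Serpind1, Serping1 and Serpinh1, each the sole member of its clade.

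Serpin transcripts made up 2.07% ± 0.326 of all counts in napabucasin livers and 2.33% ± 0.474 in vehicle livers (SD, n = 5 each). The shares in single livers ran from 1.67% to 2.53% with napabucasin and from 1.66% to 2.84% with vehicle, so the groups overlapped. Between genes, levels are compared as FPKM, the authors' expression values scaled to gene length and sequencing depth. Serpina3k stood first, with 2490.1 ± 830.3 FPKM in napabucasin livers and 2716 ± 917 FPKM in vehicle livers (SD, n = 5 each). This gene encodes contrapsin, an abundant plasma inhibitor of trypsin-like proteases. Serpina1b followed, with 1533 ± 432 FPKM in napabucasin livers and 2059 ± 795 FPKM in vehicle livers, and Serpina1d, Serpina1a and Serpina1c came after it. The 10 most abundant serpins ended with Serpina3n, Serpina1e, Serping1, Serpinf2 and Serpinc1.

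**Figure D1:**
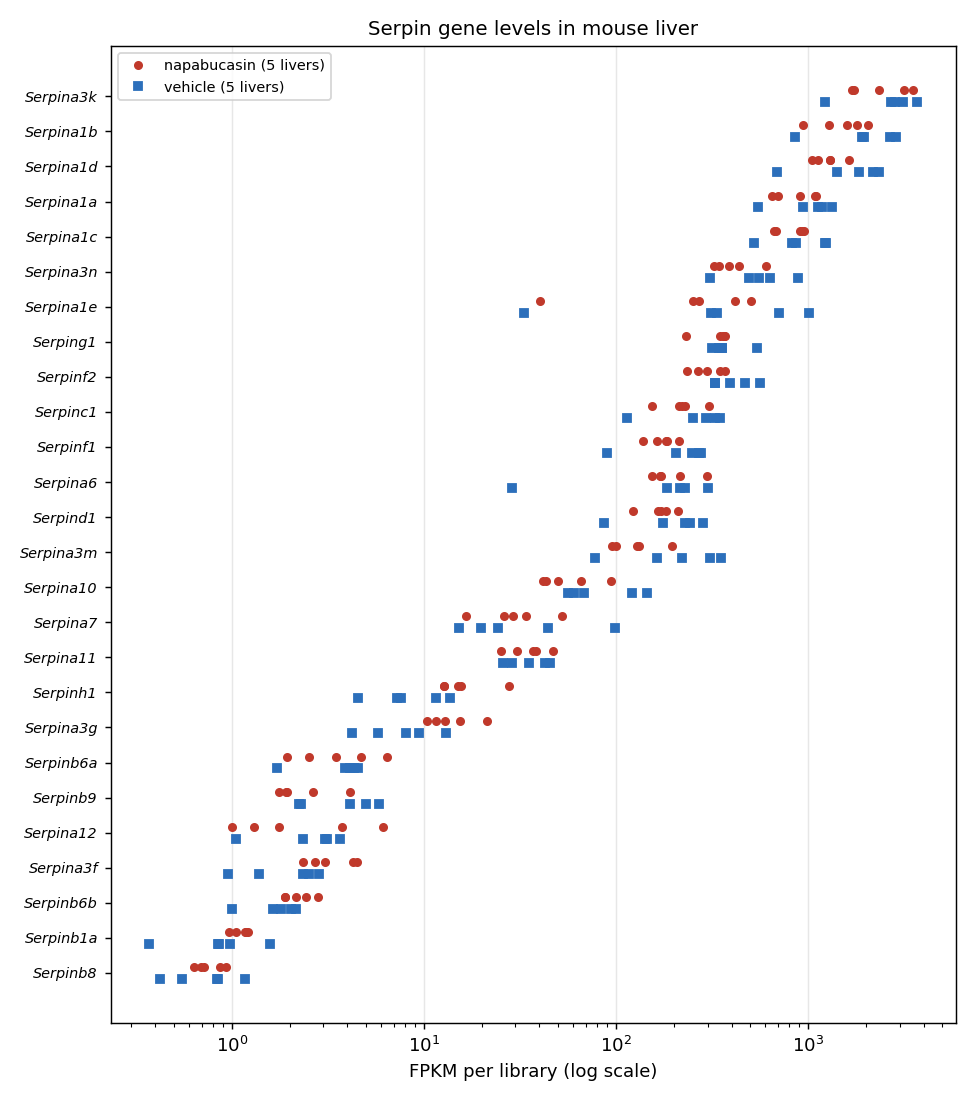
Levels of the 26 tested serpins with a mean FPKM of at least 0.5, on a log10 axis, with 1 point per liver and the napabucasin livers drawn apart from the vehicle livers. Genes run down the page from the most to the least abundant, from Serpina3k, which averaged 2490 FPKM in napabucasin livers and 2716 FPKM in vehicle livers, to Serpinb8, at 0.768 and 0.765 FPKM, and the points of the groups overlap for every gene.

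Antithrombin, the product of Serpinc1 and the main inhibitor of thrombin, averaged 224 ± 54.4 FPKM in napabucasin livers and 268 ± 93.1 FPKM in vehicle livers. Mean levels under 10 FPKM were found for 10 of the 29 tested genes, among them all 5 tested members of clade B. The lowest of the tested genes was Serpini1, the neuroserpin gene, with 0.104 ± 0.0514 FPKM in napabucasin livers and 0.0757 ± 0.0380 FPKM in vehicle livers.

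No serpin differed between the groups at an adjusted p under 0.05. edgeR's quasi-likelihood test called 0 of the 29 serpins, as it called 0 of the 14244 genes tested (0%). At an unadjusted p under 0.05 the same test put 3 serpins higher with napabucasin, Serpinh1, Serpina3g and Serpina3f, which is 10.3% of the 29, against 9.34% of all genes tested. It put 1 serpin lower, Serpina3m, which is 3.45% of the 29, against 5.83% of all genes. Both shares are near those of the whole table and so are not a result about the family. DESeq2 called 0 serpins after adjustment too, while it called 209 of the 14702 genes it gave an adjusted p (1.42%), and its unadjusted p was under 0.05 for 3 higher and 2 lower serpins of 42, beside 5.94% higher and 4% lower among 26539 genes. With the replicate number as a block edgeR again called 0 serpins, and at an unadjusted p under 0.05 there were 3 higher ones and 3 lower ones of 29, beside 11.8% higher and 8.81% lower among all genes in that fit. The lower ones there were Serpina10, Serpinb9 and Serpinf2, so the count on the lower side and its members depended on the fit.

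No serpin had groups that did not overlap: 0 of 29 in either direction. Over all genes tested, 1.21% were higher in every napabucasin liver than in any vehicle liver and 0.934% were lower in every one. The median log2 fold change was -0.19 over the 29 serpins, with 12 above and 17 below 0, and 0.00 over all genes tested. The 19 serpins with a mean of at least 10 FPKM had a median of -0.24, with 4 above and 15 below 0. The other 10 had a median of 0.13, with 8 above and 2 below 0. The split at 10 FPKM was chosen after the values were seen, so it describes these libraries and carries no test.

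**Figure D2:**
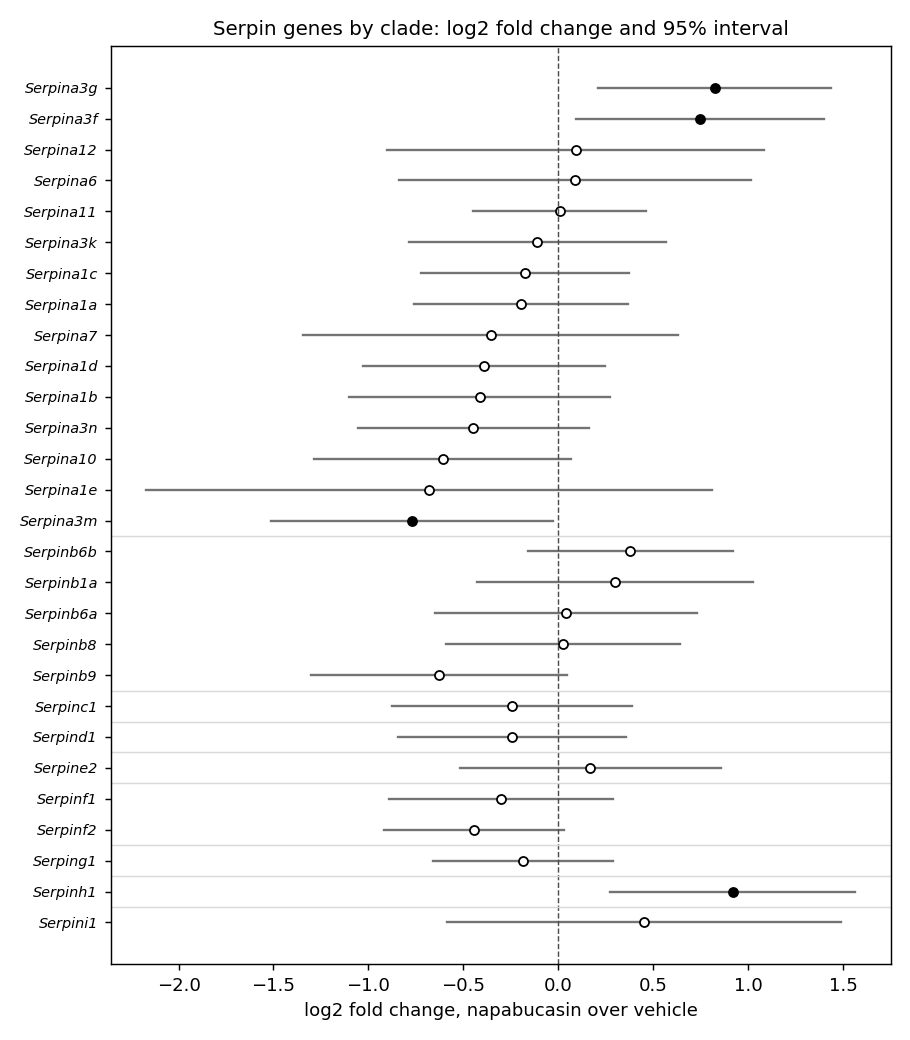
Log2 fold change, napabucasin over vehicle, of 28 tested serpins with 95% intervals from edgeR's quasi-likelihood fit. Filled points have an unadjusted p under 0.05 (Serpinh1 at 0.92, Serpina3g at 0.82, Serpina3f at 0.75 and Serpina3m at -0.77), no gene has an adjusted p under 0.05, and the other 24 intervals include 0.

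Serpinh1 encodes HSP47, a chaperone of the endoplasmic reticulum that binds procollagen and inhibits no protease. The gene lies at chr7:99345376-99353239 on the minus strand (GRCm38). Its level was 32.0, 37.5, 38.2, 68.9 and 31.7 CPM in napabucasin livers 1 to 5, against 34.1, 18.1, 18.7, 28.3 and 10.99 CPM in vehicle livers 1 to 5. Napabucasin livers 2, 3 and 4 lay above every vehicle liver, napabucasin liver 4 stood far above the rest, and the groups overlapped through vehicle liver 1. The log2 fold change was 0.92 (SE 0.30; 95% interval 0.27 to 1.56; adjusted p = 0.246) in edgeR's quasi-likelihood test, the largest of the family in size. Without napabucasin liver 4 it was 0.67, the lowest value with any 1 library left out.

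Markers of collagen-making cells had higher values in the same group. All 10 markers of stellate cells and fibroblasts had a positive log2 fold change, with a median of 0.69, and 6 of them were higher at an unadjusted p under 0.05, as were 9.34% of all genes tested. Their summed level was 385 to 921 CPM in napabucasin livers and 304 to 442 CPM in vehicle livers, and none of the 10 was at 0 in every library. Pdgfrb, a growth factor receptor of these cells, had 23.4, 25.6, 22.5, 30.7 and 18.7 CPM in napabucasin livers 1 to 5, against 14.9, 12.6, 10.4, 17.2 and 13.8 CPM in vehicle livers 1 to 5. Its groups did not overlap, with a log2 fold change of 0.81 and an adjusted p of 0.166 in edgeR's test. The collagen gene Col3a1 had a log2 fold change of 0.77 (adjusted p = 0.237). Whether these cells have a part in the Serpinh1 difference was not tested. In whole liver, fewer cells of a type and less RNA per cell cannot be told apart, and the same holds for more.

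Serpina3g and Serpina3f are neighbours in the Serpina3 cluster. Serpina3g encodes Spi2A, a mouse inhibitor of lysosomal cathepsins that stays inside the cell and is known from lymphocytes and myeloid cells. Serpina3f is its closest relative among the tested Serpina3 genes, with 87.4% identity over 744 aligned coding bases. Reads can be shared between these genes too, so their values may not be independent of each other. The level of Serpina3g (chr12:104236245-104241939, plus strand) was 27.7, 24.8, 32.5, 45.4 and 22.3 CPM in napabucasin livers 1 to 5, against 9.06, 20.3, 12.2, 27.7 and 16.7 CPM in vehicle livers 1 to 5. Napabucasin livers 1, 3 and 4 lay above every vehicle liver, and the other 2 lay inside the vehicle range. In edgeR's test the log2 fold change was 0.82 (SE 0.29; 95% interval 0.21 to 1.44; adjusted p = 0.256).

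Serpina3f (chr12:104214544-104221129, plus strand) had a lower level of 7.17, 6.28, 9.84, 10.4 and 5.47 CPM in napabucasin livers 1 to 5, against 2.22, 5.92, 3.20, 6.52 and 5.31 CPM in vehicle livers 1 to 5. As with its neighbour, napabucasin livers 1, 3 and 4 lay above every vehicle liver, vehicle liver 1 was the lowest and napabucasin liver 4 the highest. By edgeR the log2 fold change was 0.75 (SE 0.30; 95% interval 0.09 to 1.40; adjusted p = 0.298). Leaving out vehicle liver 1, vehicle liver 3, napabucasin liver 3 or napabucasin liver 4 took its unadjusted p to 0.05 or above. Serpina3g kept an unadjusted p under 0.05 with each library left out in turn, at log2 fold changes of 0.63 to 1.06.

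Markers of lymphocytes had higher values with napabucasin too. Of 12 markers of T and NK cells, 11 had a positive log2 fold change, the median was 0.92, and 9 were higher at an unadjusted p under 0.05, beside the same 9.34% of all genes. Their summed level was 35.0 to 82.9 CPM in napabucasin livers and 21.2 to 33.6 CPM in vehicle livers, and none was at 0 in every library. Cd3d, which encodes a subunit of the CD3 complex, had 2.62, 3.46, 2.65, 1.87 and 1.57 CPM in napabucasin livers 1 to 5, against 0.513, 0.735, 0.426, 0.393 and 1.01 CPM in vehicle livers 1 to 5, groups that did not overlap, and an adjusted p of 0.157 in edgeR's test. Of 10 markers of B and plasma cells, 8 were positive with a median of 1.12, 7 were higher at an unadjusted p under 0.05, and 5 had groups that did not overlap, beside 1.21% of all genes. Their sums overlapped, at 241 to 336 CPM with napabucasin and 208 to 368 CPM with vehicle. Xbp1, which the liver also expresses, made up 167 to 213 CPM of the sums with napabucasin and 161 to 308 CPM with vehicle, and had a log2 fold change of -0.38. Mzb1 and Jchain, plasma cell members of the same list, had log2 fold changes of -0.34 and 0.12. The 7 that were higher at an unadjusted p under 0.05 were the other members of that list. All 10 Kupffer cell and macrophage markers were positive, with a median of 0.65 and sums of 724 to 2688 CPM with napabucasin and 380 to 2086 CPM with vehicle. All 10 endothelial markers were positive too, with a median of 0.66 and sums of 269.9 to 538 CPM with napabucasin and 146 to 351 CPM with vehicle, and 8 of 9 tested neutrophil markers were positive, with a median of 0.45. The part of these cells in the Serpina3g and Serpina3f values was not tested.

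Since both genes had positive differences and the drug is described as a STAT3 inhibitor, the 250 bases before the RefSeq start of each are shown (GRCm38.p6, plus strand). They lie at chr12:104214294-104214543 for Serpina3f and chr12:104235897-104236146 for Serpina3g. Capitals mark the match to the STAT motif TTCNNNGAA, which reads the same on both strands.
Serpina3f: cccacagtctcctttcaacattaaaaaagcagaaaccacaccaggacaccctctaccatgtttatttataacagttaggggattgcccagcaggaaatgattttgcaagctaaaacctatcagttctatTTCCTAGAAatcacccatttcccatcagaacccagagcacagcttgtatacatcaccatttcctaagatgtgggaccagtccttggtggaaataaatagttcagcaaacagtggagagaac
Serpina3g: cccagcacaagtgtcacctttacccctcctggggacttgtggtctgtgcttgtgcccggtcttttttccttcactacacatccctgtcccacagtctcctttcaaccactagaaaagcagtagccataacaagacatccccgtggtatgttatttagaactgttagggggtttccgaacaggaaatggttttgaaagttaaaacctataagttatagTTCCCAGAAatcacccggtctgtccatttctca
Each window holds 1 match. The motif occurs in 7.02% of 32851 promoter windows of this length, and in 10 of 61 windows that belong to the 52 serpin genes with an entry in the table. On either strand, the C/EBP motif TTGCNNAA occurs in 9.56% of all windows and in 15 of the 61 serpin windows, Serpina3f among them. An interferon response motif occurs in 2.98% of all windows and in 2 of the 61, while an HNF1 motif (0.00913% of all windows) and a heat shock motif (0.466%) occur in 0 of the 61. The serpin genes with a STAT match include the paralogs Serpina3f, Serpina3g and Serpina3i. Those with a C/EBP match include Serpina1b, Serpina1d, Serpina1e and Serpina1f. Windows of paralogs, or of the same gene, can have bases in common, so the serpin windows are not independent of each other. A match describes the letters and does not show that a factor binds.

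**Figure D3:**
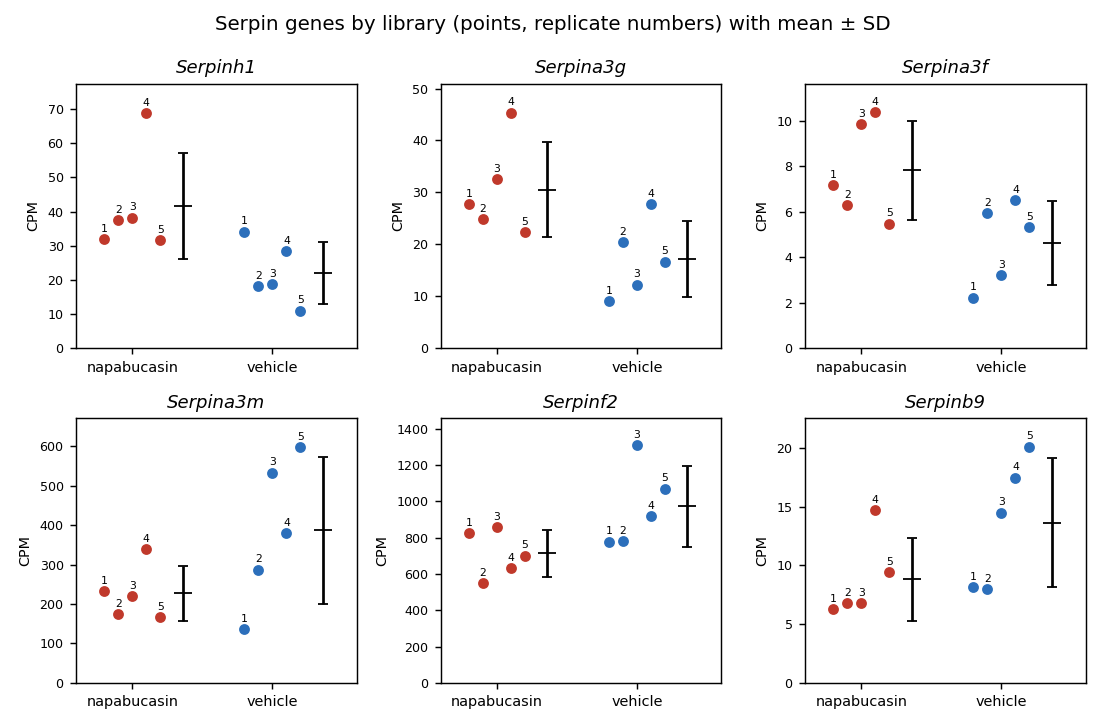
CPM in each of the 10 livers for 6 serpins, with napabucasin livers left of vehicle livers, 1 point per liver and the group mean with its SD (n = 5 each). Serpinh1, Serpina3g and Serpina3f each have 3 napabucasin livers above every vehicle liver, while Serpina3m ranges from 167 to 340 CPM with napabucasin and from 136 to 598 CPM with vehicle.

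The secreted members of the Serpina3 group gave negative values. Serpina3m, a liver serpin whose loop is shown above, had 233, 174, 221, 339.9 and 167 CPM in napabucasin livers 1 to 5, against 136, 287, 533, 380.5 and 598 CPM in vehicle livers 1 to 5. Vehicle livers 3, 4 and 5 were above every napabucasin liver, but vehicle liver 1 was the lowest of all 10, so the groups overlapped. For Serpina3m the log2 fold change was -0.77 (SE 0.35; 95% interval -1.51 to -0.03; adjusted p = 0.32), and with each library left out in turn it ran from -1.01, without vehicle liver 1, to -0.56. The unadjusted p of Serpina3m in edgeR's test stayed under 0.05 without napabucasin liver 4, vehicle liver 1 or vehicle liver 2. With any other single library left out it did not. Nor did it with library size only, with the replicate block or in limma's test on FPKM. Serpina3m took 4.54 ± 1.19 counts per 100 counts of Serpina3k in napabucasin livers and 7.29 ± 3.21 in vehicle livers (SD, n = 5 each), and vehicle liver 1 again had the lowest ratio, at 2.30.

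Serpina3k, the most abundant serpin, had 6668, 3615, 3487, 7358 and 4872 CPM in napabucasin livers 1 to 5, against 5912, 2578, 6462, 5596 and 7500.4 CPM in vehicle livers 1 to 5. The groups overlapped almost fully, and the log2 fold change was -0.11 (SE 0.32; 95% interval -0.79 to 0.57; adjusted p = 0.88). Serpina3n, an acute phase serpin that inhibits granzyme B and leukocyte proteases in mouse, had 816, 679, 903, 1264 and 723 CPM in napabucasin livers 1 to 5, against 649, 1879, 1308, 1019.6 and 1127 CPM in vehicle livers 1 to 5. Vehicle liver 2 was the highest and vehicle liver 1 the lowest of all 10. Its log2 fold change was -0.45 (SE 0.28; 95% interval -1.06 to 0.16; adjusted p = 0.446). In vehicle liver 2 there were 72.9 counts of Serpina3n per 100 counts of Serpina3k, against 10.97 to 20.2 in the other vehicle livers and 12.2 to 25.9 in napabucasin livers. All counts of the Serpina3 genes together gave a log2 fold change of -0.19 with an adjusted p of 0.742 in edgeR's test.

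The antitrypsin genes were the most abundant group as a whole. Antitrypsin is known as an inhibitor of neutrophil elastase, but the loops of the 5 genes shown above differ, and so can their targets. Together the antitrypsin genes took 0.905% ± 0.197 of counts in napabucasin livers and 1.07% ± 0.309 in vehicle livers (SD, n = 5 each). All 5 tested members had a negative log2 fold change, with a median of -0.39, and the sign held in each of the 22 other settings, but no adjusted p was under 0.05. Reads can be shared among them, so the 5 values are not independent of each other. Their summed counts gave 6458, 7008, 9803, 9386 and 11493 CPM in napabucasin livers 1 to 5, against 11685, 4906, 16052, 10832 and 13112 CPM in vehicle livers 1 to 5. Vehicle liver 2 was the lowest and vehicle liver 3 the highest. The log2 fold change of the sum was -0.36 (SE 0.31; 95% interval -1.02 to 0.30; adjusted p = 0.565, edgeR).

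Serpina1b, at chr12:103728156-103830373, had 2337, 3144, 4343, 3896 and 5016 CPM in napabucasin livers 1 to 5, against 4727, 2109, 6964, 4775 and 6390.2 CPM in vehicle livers 1 to 5, and its log2 fold change was -0.41 (adjusted p = 0.523, edgeR). Serpina1d had 1495, 1586, 1805, 1836 and 2320.3 CPM in napabucasin livers 1 to 5, against 2604, 982, 3297, 1983 and 2988 CPM in vehicle livers 1 to 5, with a log2 fold change of -0.39. In both genes vehicle liver 2 was the lowest of the 10 and vehicle liver 3 the highest. Serpina1a had 1221, 1300.0, 2007, 1691 and 2017 CPM in napabucasin livers 1 to 5, against 2092, 1031, 2456, 1728 and 2129 CPM in vehicle livers 1 to 5, with a log2 fold change of -0.20. Serpina1c had 957, 914, 1237, 1279.6 and 1314 CPM in napabucasin livers 1 to 5, against 1707, 729.7, 1696, 1191 and 1107 CPM in vehicle livers 1 to 5, with a log2 fold change of -0.17. The groups overlapped for each of these 4 genes, and their adjusted p-values in edgeR's test ran from 0.518 to 0.743.

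Serpina1e varied far more than its paralogs. It had 449, 65.9, 406, 681 and 828 CPM in napabucasin livers 1 to 5, against 555, 54.7, 1635, 1153 and 497 CPM in vehicle livers 1 to 5. Napabucasin liver 2 and vehicle liver 2 were both far below the other livers of their groups, and the range was 12.6-fold within the napabucasin group and 29.9-fold within the vehicle group. The ranges of the other 4 genes were 1.44-fold to 2.15-fold with napabucasin and 2.34-fold to 3.36-fold with vehicle. Its log2 fold change was -0.68 (SE 0.69; 95% interval -2.17 to 0.81; adjusted p = 0.63), so the interval is wide on both sides of 0. Of all Serpina1 counts, Serpina1e took 0.940% in napabucasin liver 2 and 1.12% in vehicle liver 2, and up to 7.26% in the other napabucasin livers and 10.7% in the other vehicle livers. Serpina1b took 42.1% ± 3.54 of them in napabucasin livers and 43.9% ± 3.02 in vehicle livers.

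Among the hormone carriers, Serpina6 encodes corticosteroid-binding globulin, which carries glucocorticoids in plasma. It had 312, 276, 378, 304 and 533 CPM in napabucasin livers 1 to 5, against 539, 51.7, 404, 327 and 374 CPM in vehicle livers 1 to 5. Vehicle liver 2 was far below all others, and the remaining livers overlapped. Its log2 fold change was 0.09 (SE 0.43; 95% interval -0.84 to 1.02; adjusted p = 0.93), and it was 0.31 without vehicle liver 1 and -0.18 without vehicle liver 2. Serpina7, the X-linked gene of thyroxine-binding globulin, averaged 31.7 ± 13.2 FPKM in napabucasin livers and 40.5 ± 34.4 FPKM in vehicle livers, with a log2 fold change of -0.36 (adjusted p = 0.707, edgeR). Its sign turned when vehicle liver 2, the highest of the 10, was left out, to 0.31.

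The clotting and complement inhibitors of the liver had negative values, from -0.61 for Serpina10 to -0.19 for Serping1. Serpinc1 had 2003, 1329, 1884, 1843 and 2652 CPM in napabucasin livers 1 to 5, against 3039, 1001, 2524, 2167 and 2764 CPM in vehicle livers 1 to 5, and its log2 fold change was -0.24 (SE 0.29; 95% interval -0.88 to 0.39; adjusted p = 0.686). Serpinf2, the gene of alpha-2-antiplasmin, the main inhibitor of plasmin, had 827, 551, 859, 632 and 701 CPM in napabucasin livers 1 to 5, against 778, 782, 1312, 920.0 and 1071 CPM in vehicle livers 1 to 5. Napabucasin livers 2, 4 and 5 lay below every vehicle liver, and the other 2 lay inside the vehicle range. For Serpinf2 the log2 fold change was -0.45 (SE 0.22; 95% interval -0.92 to 0.03; adjusted p = 0.352). With the replicate block, as above, in DESeq2 and in the 3 limma fits on FPKM it had an unadjusted p under 0.05. The same held in edgeR's test without napabucasin liver 1, vehicle liver 1 or vehicle liver 2. In the reported fit and the remaining settings it did not.

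Serping1, which encodes the C1 inhibitor of complement and of the contact system, had 831, 544, 862, 861 and 856 CPM in napabucasin livers 1 to 5, against 751, 821, 1268, 839 and 816 CPM in vehicle livers 1 to 5. Napabucasin liver 2 was the lowest and vehicle liver 3 the highest, while the other 8 livers lay close together. The log2 fold change was -0.19 (SE 0.22; 95% interval -0.66 to 0.29; adjusted p = 0.679). Serpind1, the gene of heparin cofactor II, had a log2 fold change of -0.24, and Serpina10, whose product inhibits factor Xa together with protein Z, had -0.61 (adjusted p = 0.368, edgeR). Serpinf1, which encodes the antiangiogenic factor PEDF and inhibits no protease, averaged 176 ± 27.8 FPKM in napabucasin livers and 219 ± 77.0 FPKM in vehicle livers (SD, n = 5 each), with a log2 fold change of -0.30.

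Other plasma proteins made by hepatocytes also had mostly negative values. Of 19 secreted proteins outside the family, 17 had a negative and 2 a positive log2 fold change, with a median of -0.30. None had an unadjusted p under 0.05 in edgeR's test. Over all genes tested, 49.9% were negative, and 9.34% were higher and 5.83% lower by that rule. Of 10 hepatocyte markers, 8 were negative, with a median of -0.22. In edgeR's test 2 of the 10 were lower at an unadjusted p under 0.05, beside the same 5.83% of all genes. They were Cps1, with a log2 fold change of -0.59, and Ass1, with -0.69. Albumin had a log2 fold change of -0.29 and haptoglobin one of -0.36, beside the median of -0.39 of the antitrypsin genes. The share of counts from hepatocytes was not measured apart from these genes, and its part in the serpin values was not tested.

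Serpine2, the gene of protease nexin 1, averaged 0.277 ± 0.0600 FPKM in napabucasin livers and 0.248 ± 0.0894 FPKM in vehicle livers and had a log2 fold change of 0.17.

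Clade B serpins are kept in the cytosol and nucleus, and some are known to protect cells from proteases of their own granules. Serpinb9 encodes the inhibitor of granzyme B. It had 6.30, 6.82, 6.801, 14.7 and 9.44 CPM in napabucasin livers 1 to 5, against 8.12, 7.99, 14.5, 17.5 and 20.1 CPM in vehicle livers 1 to 5. Napabucasin livers 1, 2 and 3 lay below every vehicle liver, and napabucasin livers 4 and 5 lay inside the vehicle range. The log2 fold change was -0.63 (SE 0.31; 95% interval -1.30 to 0.05; adjusted p = 0.355), and the sum over all Serpinb9 paralogs gave -0.61 (adjusted p = 0.362, edgeR). Its target Gzmb, a marker of cytotoxic cells, had 5.86, 17.2, 11.1, 14.5 and 8.76 CPM in napabucasin livers 1 to 5, against 2.65, 4.87, 5.54, 5.34 and 6.75 CPM in vehicle livers 1 to 5, with a log2 fold change of 1.19 (adjusted p = 0.204). The difference between the fold changes of the pair was not tested.

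The other 4 tested members of clade B had positive values with intervals that include 0. Serpinb6b had a log2 fold change of 0.38 and Serpinb1a, an inhibitor of neutrophil elastase in the cytosol, had 0.30. Serpinb6a, a cytosolic inhibitor of cathepsin G, had 0.04 and Serpinb8 had 0.03, and the sign of both depended on the fit. Among the remaining members, Serpini1 had 0.45, Serpina12, the gene of the adipokine vaspin, had 0.09, and Serpina11, whose function is not established, had 0.01. Adjusted p-values of these 7 genes in edgeR's test were between 0.465 and 0.99.

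Single libraries set many of the extremes. Vehicle liver 2 was the lowest of the 10 livers for 12 of the 29 tested serpins: all 5 Serpina1 genes, Serpina3k, Serpina6, Serpinb1a, Serpinb8, Serpinc1, Serpind1 and Serpinf1. It was the highest for Serpina3n and Serpina7. The acute phase gene Hp, looked up after these values were seen, had 6524, 6349, 11811, 12205 and 7549 CPM in napabucasin livers 1 to 5, against 10362, 14578, 14584, 9310.4 and 8150.0 CPM in vehicle livers 1 to 5, so that vehicle livers 2 and 3 were above all others. Vehicle liver 1 was the lowest for 7 serpins, among them Serpina3f, Serpina3g, Serpina3m and Serpina3n, and the highest for 5. Vehicle liver 3 was the highest for 8 and vehicle liver 5 for 6. Napabucasin liver 4 was the highest for 5, namely Serpina3f, Serpina3g, Serpinb6a, Serpinh1 and Serpini1. Without vehicle liver 2, 6 serpins were lower at an unadjusted p under 0.05 in edgeR's test, among them Serpina1b and Serpina1d, beside 6.6% of all genes in that fit. Without vehicle liver 1 there were 5, beside 8.25% of all genes. With napabucasin livers 1 and 2 and vehicle liver 2 left out, the libraries of highest ribosomal RNA share, there were 0, beside 3.42% of all genes, while Serpinh1, Serpina3g and Serpina3f were still higher at an unadjusted p under 0.05, beside 5.28% of all genes.

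**Figure D4:**
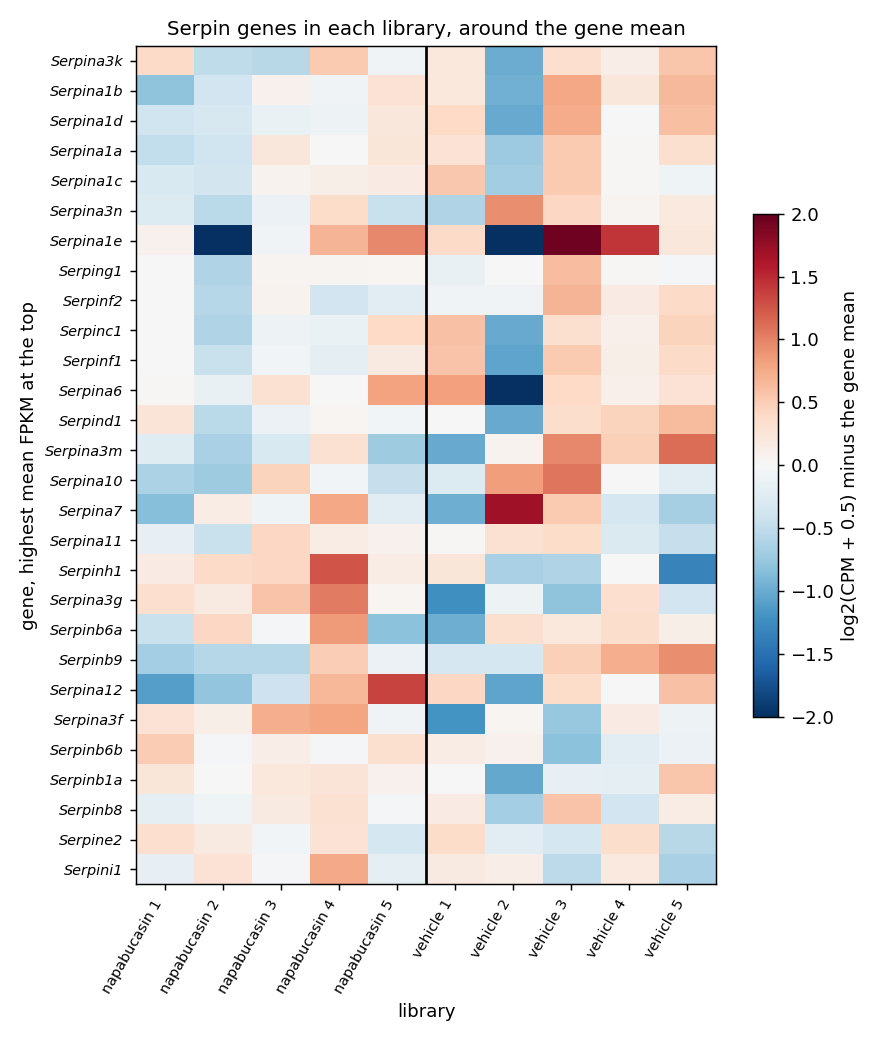
Heat map of log2(CPM + 0.5) of 28 tested serpins, each gene centred on its mean over the 10 livers, with the 5 napabucasin livers left of the 5 vehicle livers. The column of vehicle liver 2 holds the lowest value of 12 genes, and the column of napabucasin liver 4 the highest of 5.

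Proteins that act with the serpins were examined as lists chosen for their role. Of 24 tested proteases that serpins are known to inhibit, 12 had a positive and 12 a negative log2 fold change, with a median of 0.01. Gzmb alone had an unadjusted p under 0.05 in edgeR's test, on the higher side. Over all genes tested, 9.34% were higher and 5.83% lower by that rule. Of 14 cofactors and clearance receptors, 9 were positive and 5 negative. Sdc1, a heparan sulfate proteoglycan of the cell surface, was the 1 with an unadjusted p under 0.05, beside the same 5.83% of genes on the lower side. It had 127, 91.2, 118, 117 and 125 CPM in napabucasin livers 1 to 5, against 172, 117, 221, 267 and 195 CPM in vehicle livers 1 to 5. The log2 fold change of Sdc1 was -0.75 (adjusted p = 0.227, edgeR). Its groups overlapped narrowly. Of 18 factors for folding and export from the endoplasmic reticulum, 10 were positive, with a median of 0.03. Derl3, a factor of protein disposal from that compartment, had a log2 fold change of 1.50 (adjusted p = 0.256).

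Of 26 tested protease inhibitors outside the family, 10 were positive and 16 negative, with a median of -0.10. In edgeR's test the unadjusted p was under 0.05 for 3 on the higher side and 1 on the lower side. Over all genes tested the shares were 9.34% and 5.83%. The lower one, Itih5, a member of the inter-alpha-trypsin inhibitor heavy chain family, had a log2 fold change of -0.77 (adjusted p = 0.278, edgeR). Tfpi, the tissue factor pathway inhibitor, had 14.4, 8.44, 7.80, 11.1 and 6.98 CPM in napabucasin livers 1 to 5, against 4.70, 5.56, 4.26, 5.17 and 3.45 CPM in vehicle livers 1 to 5. Its groups did not overlap, and its log2 fold change was 1.07 (adjusted p = 0.166, edgeR). Reck, an inhibitor of matrix metalloproteases, had 1.16 and Mug2, a murinoglobulin that traps many proteases, had 1.43, with napabucasin liver 1 at 4316 CPM of Mug2 against 601 to 1646 CPM in the other napabucasin livers and 268 to 1129 CPM in vehicle livers. Mug2 has near-identical paralogs, and its value is uncertain for the same reason as those of the Serpina1 genes. Of 18 regulators of serpin genes and hormone carriers, 13 were negative, with a median of -0.10, and 3 were lower at an unadjusted p under 0.05, beside 5.83% of all genes. Onecut1, a transcription factor of liver development and the member of smallest p, had 1.37, 1.84, 2.54, 1.28 and 1.3 CPM in napabucasin livers 1 to 5, against 2.31, 3.95, 2.42, 5.73 and 4.38 CPM in vehicle livers 1 to 5. Its groups overlapped, and its log2 fold change was -1.17 (adjusted p = 0.223, edgeR). Fkbp5, a cochaperone of the glucocorticoid receptor, had a log2 fold change of -0.87 (adjusted p = 0.299). Cebpa, a transcription factor of hepatocyte genes, had 62.2, 111, 145, 159.9 and 126 CPM in napabucasin livers 1 to 5, against 172, 177, 209, 187 and 221 CPM in vehicle livers 1 to 5. Every napabucasin liver was below every vehicle liver, and its log2 fold change was -0.68 (adjusted p = 0.256, edgeR).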

How the data were processed

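RNA from 10 mouse livers was sequenced, 5 napabucasin and 5 vehicle. The deposited counts are whole reads per gene and carry no normalization. CASAVA, HISAT2 2.0.5 and featureCounts 1.5.0-p3 were used with GRCm38 (mm10), per the submitters' processing notes. Strand setting, annotation release and treatment of reads matching several genes: not given in the sources used here. The authors also deposited FPKM values, which served for levels. Depth was 14124484 to 17759967 counts per library. The floor given for genes without a count covers counting error only. Intervals of fold changes come from edgeR's fit and also include the variation among livers.

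Counts of all 54532 genes entered edgeR 4.0.16 (R 4.3.3): filterByExpr kept 14244 genes, libraries were scaled by TMM, and treatment was tested by the quasi-likelihood F test in its robust form. Adjustment ran over all genes tested by the Benjamini-Hochberg method at 0.05. CPM values use TMM library sizes. Standard errors and 95% intervals of log2 fold changes follow from the F statistic. edgeR's common biological coefficient of variation came to 0.325. The labels name biological replicates, and p-values describe the variation among these 10 livers. The procedure was tested on simulated data. For paralog sums, the rows of a group were replaced by their sum before the fit.

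Coding sequences came from GENCODE M21 on GRCm38, whose gene starts and ends equalled those of the deposited table for 61 of 61 serpins. Promoter windows came from RefSeq (GRCm38.p6). Protein sequences were not used here.

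The members, gene lists and rules were chosen with earlier results of these data known. Values per liver are given for serpins with an unadjusted p under 0.05, for the 10 most abundant, and for Serpina6, Serpinb9 and the Serpina1 and Serpina3 genes set by name. Of other lists, up to 4 members of smallest p could be named. Albumin, haptoglobin, Xbp1, Mzb1 and Jchain were named outside that rule, after their values were seen.

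After subtraction of group means, libraries of equal number correlated at 0.154, 0.227, 0.208, 0.270 and 0.278. Each exceeds 0.1, but the best match was the library of equal number for only 6 of the 10. These values do not settle whether equal numbers are pairs, and the labels do not say so. The reported fit took the groups as unpaired, and the fit with the replicate number as a block is given beside it. Alternatives were DESeq2 1.42.0, other normalizations and filters, the test without robust estimation, limma 3.58.1 on log2(FPKM + 1) and log2(FPKM + 0.1), a replicate block, protein-coding genes only, each library left out, and, chosen after the data were seen, the 3 libraries of highest ribosomal RNA share left out. The 7 Serpin rows of other biotypes were left out. One tested member enters the counts over the family but is not reported here.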

Additional observations from a re-analysis of the deposited data

Results flagged for a closer look

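In each group of 5 livers, a value was marked when its gap to the nearest of the other 4, divided by the range of the group, was above Dixon's critical value of 0.71. Of 60 groups examined, 4 were marked, and chance alone gives about 3. Serpinh1 in napabucasin liver 4 had 68.9 CPM, against 31.7 to 38.2 CPM in the other napabucasin livers. Serping1 in napabucasin liver 2 had 544 CPM, against 831 to 862 CPM in the other napabucasin livers. Serping1 in vehicle liver 3 had 1268 CPM, against 751 to 839 CPM in the other vehicle livers. Serpinb6a in vehicle liver 1 had 9.49 CPM, against 20.8 to 24.6 CPM in the other vehicle livers.

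A serpin row outside the protein-coding genes also stood apart. The pseudogene Serpina4-ps1 had 1273 counts in napabucasin liver 1, against 14 to 135 counts in the other 4 napabucasin livers and 16 to 139 counts in vehicle livers. It was not a member and entered no comparison.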

How the results depend on the processing

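In no setting run did a serpin have an adjusted p under 0.05, and the smallest was 0.0822. The count of serpins higher at an unadjusted p under 0.05 stayed at 2 or 3. The lower count, 1 in the reported fit, was 0 with library size only, 3 without a filter on low counts, 2 with DESeq2, 3 with the replicate block and 0 without the 3 libraries of highest ribosomal RNA share; it ran from 0 to 6 with each library left out, with 6 without vehicle liver 2, 5 without vehicle liver 1, 2 without napabucasin liver 4 and 0 without napabucasin livers 2 or 5 or vehicle livers 3 or 4. With each library left out, 3.15% to 8.25% of all genes were lower by the same rule, against 2.53% with library size only and 8.81% with the replicate block. Over all genes, adjusted calls were 0 in the reported fit, 1 with library size only, 19 without a filter, 209 with DESeq2, 1 with limma on log2(FPKM + 0.1), and 0 to 18 with each library left out, 18 of them without vehicle liver 1.

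Of the 29 serpins, 21 kept the sign of their log2 fold change in every setting that tested them, and 8 did not. Not all were tested in all 22 settings: Serpini1 was in 19 and Serpine2 in 20. The cause of the sign changes was not tested. Without a filter Serpina11 was at -0.018 and Serpinb8 at -1.4e-05. Serpina12 was at -0.063, -0.13 and -0.063 in the 3 limma fits and -0.10 with the replicate block, and Serpinb6a at -0.0090, -0.017 and -0.0090 and, with the block, -0.0034. Serpina3k was at 0.0073 with library size only. Without the 3 libraries, Serpina6 was at -0.0085, Serpina7 at 0.49 and Serpine2 at -0.010. With each library left out, Serpina11 ran from -0.11 to 0.11, Serpina12 from -0.42 to 0.30, Serpina3k from -0.29 to 0.016, Serpina6 from -0.18 to 0.31, Serpina7 from -0.62 to 0.31, Serpinb6a from -0.23 to 0.20, Serpinb8 from -0.12 to 0.23 and the summed Serpinb6 genes from -0.10 to 0.23. The replicate block changed no adjusted call. Depth limits Serpine2 and Serpini1, both under 0.5 FPKM.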
